A study of Mus musculus with 14 samples.

Results

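The soluble supernatant of mouse testis was compared with the whole testis lysate, gene by gene, as the first step in a purification of the chromatoid body. Genes entered the comparison when they carried a symbol, had a mean of at least 5 FPKM (fragments scaled for transcript length and library size) over supernatant and lysate, and were above 0 in both. This rule kept 7847 of the 21905 genes of the joint table. Odf3b was the gene just inside the threshold, at 5.28 FPKM in supernatant, against 4.72 in lysate, and Zfy2 the one just outside, at 4.92 and 5.07 FPKM. The value compared was the log2 ratio of (FPKM + 1), supernatant over lysate. The supernatant, the first pellet (pellet1), the second pellet (pellet2) and the lysate were each 1 library from C57BL/6 mice of at least 6 weeks. Per the labels' protocols, tubule cells were dissociated with collagenase, fixed with formaldehyde, broken in detergent buffer by sonication and centrifuged into supernatant and pellet1, and pellet1 was sonicated again, filtered and spun to give pellet2. All 4 libraries therefore share fixation and sonication, and no source used here gives the number of animals behind each. The labels do not say that the lysate library was made from the same batch of cells as the supernatant. With 1 library a condition there was no replicate check, and each difference below is a size without an error.

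A chromatoid body is a dense granule of RNA and protein beside the nucleus of a round spermatid. It holds much of the cell's MVH, a helicase encoded by Ddx4, and the machinery of piRNAs, the small RNAs that silence transposons in germ cells. Spinning a lysate leaves cytosolic particles in the supernatant and takes down dense material such as nuclear remnants and large granules. Small nucleolar RNAs (snoRNAs) work in the nucleolus: C/D box snoRNAs guide methylation of ribosomal RNA and H/ACA snoRNAs guide its pseudouridylation, while Cajal body RNAs guide the same changes on the RNAs of the spliceosome. Most mammalian snoRNAs are cut out of the introns of host genes, many of which encode proteins of translation.

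The sequences of the snoRNAs at the ends of the comparison are shown because small RNA loci made up most of the genes that were lower in supernatant. They are GENCODE M21 transcripts (build GRCm38, strand of the RNA, matched by symbol); capitals mark the first match to TGATGA, the C box, and the last match to CTGA, the D box, in C/D snoRNAs, and the ACA that precedes the last 3 bases in H/ACA snoRNAs.
Snord96a: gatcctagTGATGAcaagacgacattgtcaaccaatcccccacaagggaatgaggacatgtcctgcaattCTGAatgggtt
Snord90: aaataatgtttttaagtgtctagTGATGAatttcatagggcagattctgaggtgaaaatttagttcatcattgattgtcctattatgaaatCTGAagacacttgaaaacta
Snord49b: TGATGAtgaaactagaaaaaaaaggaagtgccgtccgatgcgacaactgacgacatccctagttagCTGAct
Snord72: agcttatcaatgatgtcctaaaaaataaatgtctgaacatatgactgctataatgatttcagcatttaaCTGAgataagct
Snora26: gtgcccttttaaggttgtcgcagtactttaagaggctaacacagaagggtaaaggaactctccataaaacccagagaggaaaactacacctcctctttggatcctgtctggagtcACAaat
Snora23: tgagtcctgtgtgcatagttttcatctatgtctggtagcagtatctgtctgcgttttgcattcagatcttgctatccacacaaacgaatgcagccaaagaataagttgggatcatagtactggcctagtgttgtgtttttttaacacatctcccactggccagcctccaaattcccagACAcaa

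Snord96a, Snord90 and Snord49b were the 3 C/D snoRNAs lowest in supernatant relative to lysate, and Snord72, which has no TGATGA match, was the highest. Snora26 and Snora23 were the H/ACA snoRNAs lowest in supernatant. TGATGA was found in 36 of the 51 measured C/D snoRNAs (70.6%), in 0 of the 23 measured H/ACA snoRNAs and in 1.66% of the first 80 bases of 32851 RefSeq promoters (GRCm38.p6). CTGA, which is short, was in 51 of 51 C/D snoRNAs, in 52.2% of H/ACA snoRNAs and in 33.0% of the promoter windows. The ACA at its place before the end was in 18 of 23 H/ACA snoRNAs (78.3%), in 0 C/D snoRNAs and in 1.73% of the windows. Each motif was searched only on the strand of the RNA, and a C box match preceded by C holds a CTGA as well. These RNAs are short, with a median of 80 bases for C/D and 133 for H/ACA snoRNAs, and in GENCODE M21 43 of the 82 measured snoRNAs and Cajal body RNAs lay in an intron of every transcript of a containing gene, 36 overlapped an exon of at least 1 of its transcripts, and 3 lay outside other genes.

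The supernatant held nearly the same balance of transcripts as the lysate, with small nucleolar RNAs as the main exception. Over all 7847 genes the median log2 ratio was -0.00, the quartiles were -0.15 and 0.13, and 96.0% of genes lay within 1.5-fold. Higher by 2-fold or more in supernatant were 15 genes (0.191% of those compared), and 77 were lower (0.981%). Of the 77 lower genes 35 were C/D snoRNAs, 13 were H/ACA snoRNAs, 2 were Cajal body RNAs, 2 were microRNAs, 1 was a vault RNA and 24 were outside these lists. At 1.5-fold the counts were 81 higher (1.03%) and 234 lower (2.98%). Outside the small RNA lists 7739 genes were compared, and 10 were 2-fold higher and 24 lower.

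**Figure D1:**
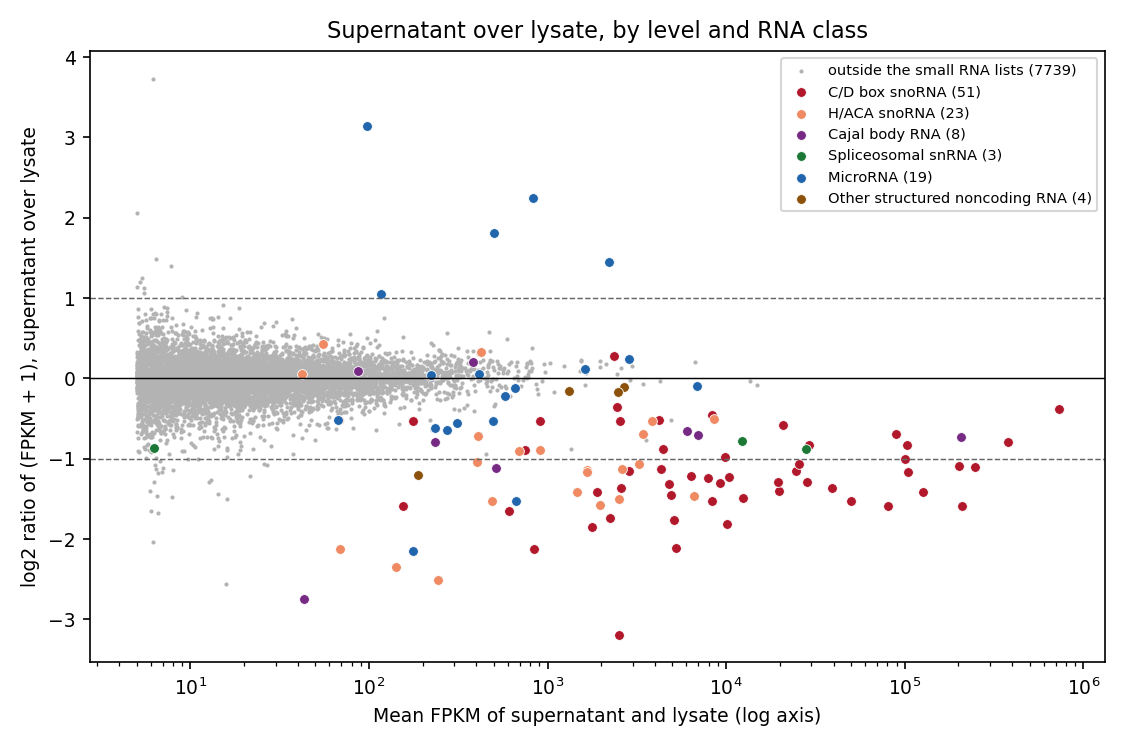
Each point is 1 gene: the x axis gives its mean FPKM over supernatant and lysate on a log axis, the y axis its log2 ratio of (FPKM + 1), supernatant over lysate, and the dashed lines stand at 2-fold. The 7739 genes outside the small RNA lists (grey) lie around 0, most widely at low levels, while most of the 51 C/D and 23 H/ACA snoRNAs lie below 0 at all levels.

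C/D box snoRNAs had the lowest median of the lists with the joint table's lysate value. The median log2 ratio of the 51 measured of 67 was -1.23, where that of all genes was -0.00. Lower by at least 2-fold were 35 and higher 0, and 42 were at least 1.5-fold lower. Snord96a was at 496 FPKM in supernatant, 8433 in pellet1, 14496 in pellet2, against 4531 in lysate, a log2 ratio of -3.19. Its supernatant value was the lowest of the 4 and both pellets were above lysate. Snord90 was at 1966 FPKM in supernatant, 105220.0 in pellet1, 33943 in pellet2, against 8525 in lysate. Snord49b was at 314 FPKM in supernatant, 9038 in pellet1, 15724 in pellet2, against 1370.0 in lysate. Both had log2 ratios of -2.12, and in both, as for Snord96a, supernatant was lowest and both pellets were above lysate. The most abundant C/D snoRNA, Snord34, differed less. It was at 632275 FPKM in supernatant, 3919200.0 in pellet1, 2331190.0 in pellet2, against 822679 in lysate (log2 ratio -0.38), and the next, Snord38a, had a log2 ratio of -0.80. The 4 that followed in abundance lay near the median of the class or below it, at -1.10 for Snord87, -1.59 for Snord58b, -1.10 for Snord37 and -1.42 for Snord57. Snord72 was at 2575 FPKM in supernatant, 21263 in pellet1, 17109 in pellet2, against 2129.7 in lysate (0.27), and was the only C/D snoRNA above lysate in supernatant.

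The lower values were found at every level of abundance. Among the 23 snoRNAs of both classes with a mean of at least 10000 FPKM 17 were 2-fold lower and the log2 ratio ran from -1.81 to -0.38, with a median of -1.16. Of 33 between 1000 and 10000 FPKM 23 were 2-fold lower (median -1.22), and of 18 under 1000 FPKM 8 were (median -0.90). Taking both classes together, 70 of 74 snoRNAs were lower in supernatant than in lysate, 73 were higher in pellet1 than in lysate and 68 were higher in pellet2 than in lysate. Supernatant was the lowest of the 4 libraries for 69 of the 74. The 3 ratios share the lysate library, so they are given as values only. Their medians for the 74 snoRNAs were -1.16 in supernatant, 3.0 in pellet1 and 1.93 in pellet2, each over lysate, where those of all genes were -0.00, -0.03 and -0.02.

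**Figure D2:**
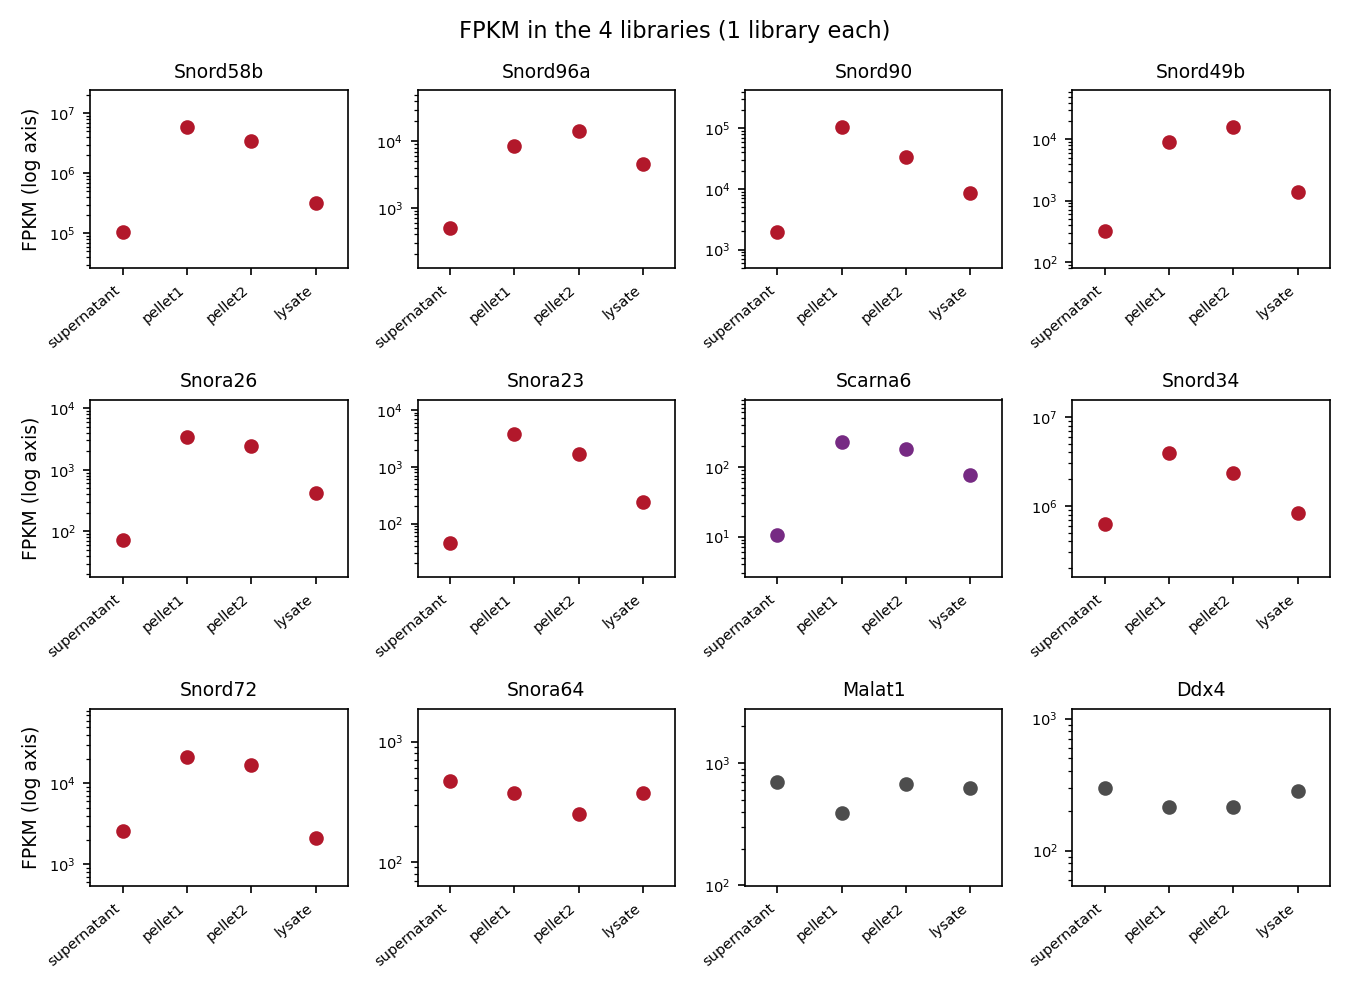
FPKM on a log axis in supernatant, pellet1, pellet2 and lysate (1 point for each library, no replicates) for 9 snoRNAs (red), Scarna6 (purple), and Malat1 and Ddx4 (grey). Snord58b, Snord96a, Snord90, Snord49b, Snora26, Snora23, Scarna6 and Snord34 are lowest in supernatant, Snord72 is close in supernatant and lysate, and Snora64, Malat1 and Ddx4 stay within a narrow range.

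Few of these differences passed the authors' own test. A q under 0.05 is given for 1 of the 7847 genes (0.0127%) in the authors' deposited table, Snord58b, which was at 104622 FPKM in supernatant, 6024400.0 in pellet1, 3415580.0 in pellet2, against 314040.0 in lysate (q = 0.0361). Snord58b is read from a locus at chr18:75160131-75163035 in mm9. An unadjusted p under 0.05 was given for 10 genes in the authors' deposited table, all of them lower in supernatant: 7 C/D snoRNAs, 2 H/ACA snoRNAs and Gm13138 from outside the lists. Snord85 came next to Snord58b, with q = 0.162 in the authors' deposited table.

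The size of the snoRNA difference depends on which deposited lysate value is used. The lysate library is also given in a separate gene table that was scaled apart, in which genes stood 1.22 lower on the log2 scale at the median, a log2 shift of -1.22. After centring on that shift, 27 of the 68 snoRNAs listed in both tables were 2-fold lower in supernatant, against 43 of the same 68 with the joint table, and 26 were 2-fold lower by both. The direction was less dependent on the table, since 63 of 68 lay below 0 with the separate value and 64 with the joint one, and the medians were -0.89 and -1.16. For Snord96a the centred log2 ratio was -2.91. For Snord58b, at 57349 FPKM in the separate table, it was -0.33, so the only gene called by the authors had the larger difference only with the joint value. Over the 5133 genes in both tables, the 2 values of the same lysate library, once centred, differed by 2-fold or more for 81 genes, and supernatant and joint lysate for 58. With the separate value the median of the 3 other structured noncoding RNAs in both tables, -0.96, was below that of the 48 C/D snoRNAs, -0.90. Among the others that lost the 2-fold call with the separate value were Snord87 and Vaultrc5, at -0.83 and -0.96. Snord4a also lost it and changed direction, from -1.37 with the joint value to 0.11.

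H/ACA snoRNAs followed the C/D class, with more spread. The median log2 ratio of the 23 measured of 36 was -1.06; 13 were at least 2-fold lower and 0 higher. Snora26 was at 72.2 FPKM in supernatant, 3449 in pellet1, 2389 in pellet2, against 415 in lysate (-2.51). Cuffdiff gave Snora26 the status of too little data, so its ratio may rest on few reads. Snora23 was at 45.5 FPKM in supernatant, 3823 in pellet1, 1695 in pellet2, against 237 in lysate (-2.35). Among the more abundant members Snora15 was at 3531 FPKM in supernatant, against 9763 in lysate (-1.47), Snora30 at 7088 and 10079 (-0.51), and Snora52 at 3132 and 4534 (-0.53). In all, 20 of the 23 were lower in supernatant than in lysate. The exceptions were of low level: Snora70 was at 63.8 FPKM in supernatant, 63.9 in pellet1, 0 in pellet2, against 47.3 in lysate (0.42), and Snora64 at 472 in supernatant, 372 in pellet1, 251 in pellet2, against 375 in lysate (0.33). The last was Snora74a, at 41.3 FPKM in lysate, with a log2 ratio of 0.05. A further 7 snoRNAs of the lists passed 5 FPKM on average but were listed at 0 in one library and get no ratio. Of these 6 were listed at 0 in supernatant, among them Snord19 at 1499 FPKM in lysate and Snora61 at 479, and 1, Snord42a, was listed at 0 in lysate and at 2026 FPKM in supernatant. Rnu73a and Rnu73b, which the lists do not hold, were also listed at 0 in supernatant, at 713 and 723 FPKM in lysate.

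Cajal body RNAs and the RNAs of the minor spliceosome were also lower in supernatant, by less. The median of the 8 measured Cajal body RNAs was -0.72, with 2 at least 2-fold lower. Scarna6 was at 10.5 FPKM in supernatant, 230.0 in pellet1, 183 in pellet2, against 76.3 in lysate (-2.75), whereas Scarna9, the most abundant, was at 154556 in supernatant, against 256724 in lysate (-0.73) and Scarna3a at 407 and 354 (0.20). Rnu11 and Rnu12, the U11 and U12 RNAs of the minor spliceosome, were at 19598 and 8961 FPKM in supernatant, 26963 and 9512 in pellet1, 15297 and 5769.7 in pellet2, and 36099 and 15443.5 in lysate. Their log2 ratios were -0.88 and -0.79 (the median of the 3 spliceosomal RNAs measured was -0.87, with 0 past 2-fold), and in pellet1 they stood below lysate, unlike the snoRNAs. The third, Rnu1b2, was at 8.37 FPKM in lysate in the joint table and at 720 in the separate one, which moves its log2 ratio to -8.33, so the ratio of Rnu1b2 depends on the table. The RNAs of the processing enzymes RNase MRP (Rmrp) and RNase P (Rpph1) had log2 ratios of -0.10 and -0.17, and that of the 4.5S RNA gene Rn4.5s was -0.16, which became -1.14, past 2-fold, with the separate lysate value. Vaultrc5, the RNA of cytoplasmic vault particles, was at 113 FPKM in supernatant, 92.5 in pellet1, 58.3 in pellet2, against 263 in lysate (-1.20). Both pellets stood below supernatant and lysate for Vaultrc5, unlike for most snoRNAs.

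The genes that share a locus with these small RNAs did not share their difference. As many as 59 snoRNAs and Cajal body RNAs shared a locus, as Cuffdiff merges overlapping features, with 46 other measured genes. The median log2 ratio was -1.13 for the small RNAs and -0.01 for the other genes; 38 of the 59 small RNAs and 1 of the 46 other genes were at least 2-fold lower, and 57 of the 59 small RNAs lay below the gene at their locus. In 45 of the pairs GENCODE M21 places the small RNA inside a gene of that same symbol, and there 44 lay below it. Where the small RNA lay in introns of every transcript, 23 of 24 did. Pairs whose gene has another symbol in GENCODE, such as Gnb2l1 (Rack1 there), were not among the 45. Scarna3a was also left out, since GENCODE names its containing gene Cop1. It lay above Rfwd2, the gene at its locus, at log2 ratios of 0.20 and -0.11. Gnb2l1, which encodes the ribosome-bound scaffold protein RACK1 (mm9 chr11:48613862-48619743), was at 16.5 FPKM in supernatant, against 20.9 in lysate (-0.32), while Snord96a and Snord95 inside it had log2 ratios of -3.19 and -1.49. Rc3h2, an RNA-binding ubiquitin ligase (chr2:37225591-37278423), was at 14.0 FPKM in supernatant, against 14.3 in lysate, with Snord90 inside it. Eef2, translation elongation factor 2, was at 258 and 253 FPKM, while Snord37 at its locus was at 128032 in supernatant, against 273821 in lysate. Ipo7, an importin that carries proteins into the nucleus (chr7:117161939-117198628), was at 18.4 and 17.7 FPKM, with Snora23 inside it. Snhg6 and Snhg8, noncoding host genes of snoRNAs, were the exceptions: Snhg6 was at 6.14 FPKM in supernatant, against 13.3 in lysate (-1.003) beside Snord87 (-1.10), and Snhg8 was at 15.6 and 29.4 (-0.88) beside Snora24 (-1.06). The 16 measured genes of a list of snoRNA hosts had a median of -0.13, with 1 at least 2-fold lower (Snhg6).

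**Figure D3:**
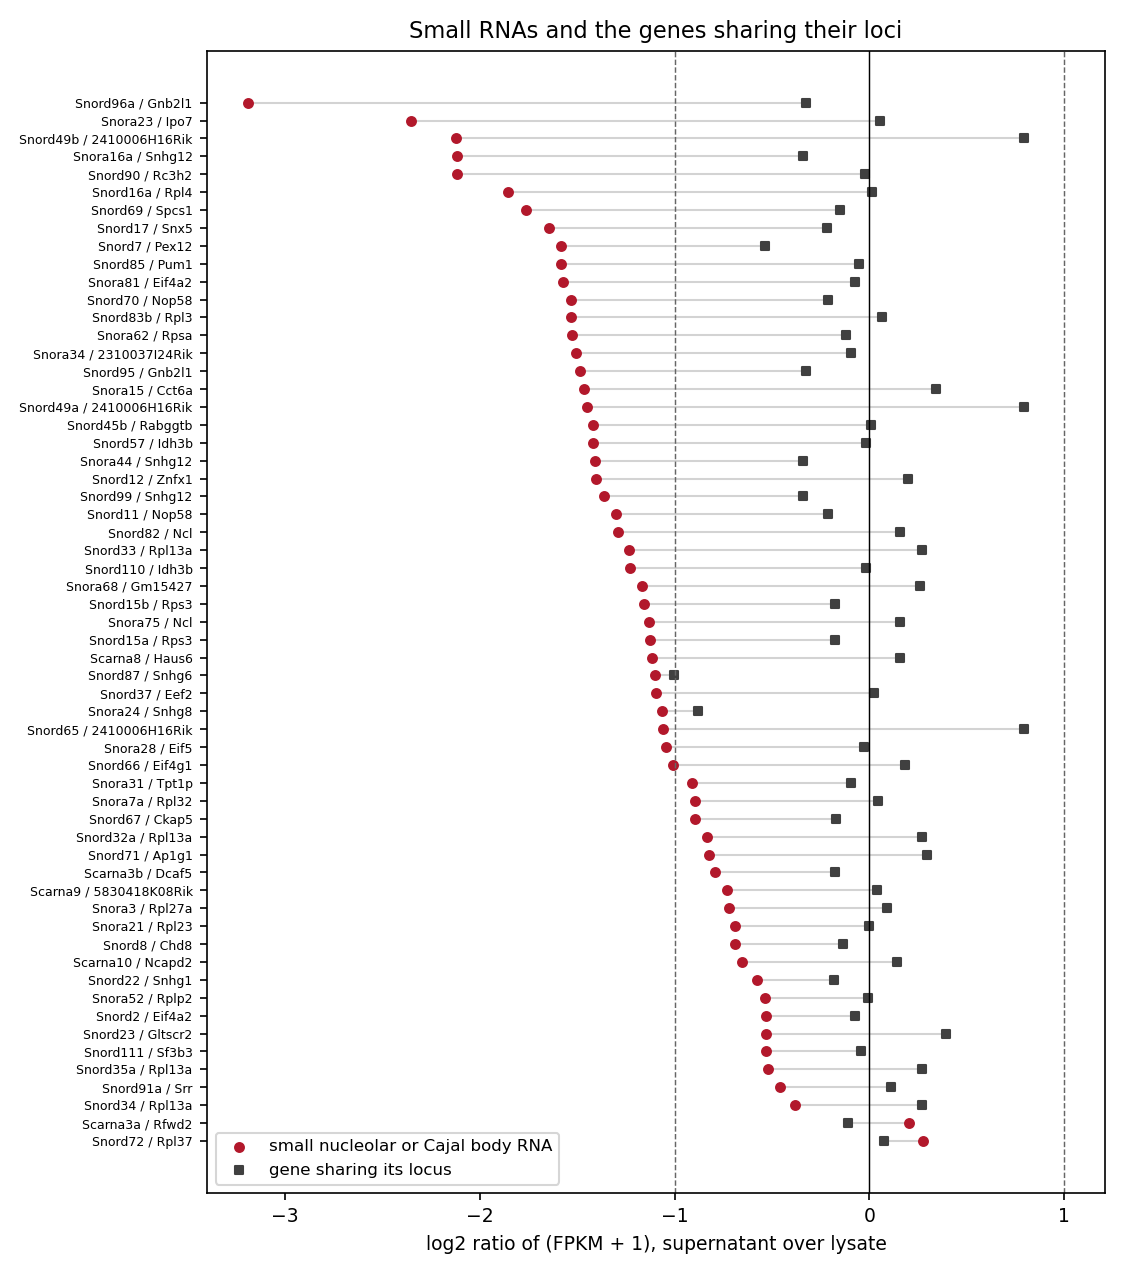
Each row is 1 of 59 snoRNAs or Cajal body RNAs (red circle) and the gene in the same locus (dark square), ordered by the small RNA's log2 ratio of (FPKM + 1), supernatant over lysate, on the x axis, with dashed lines at 2-fold. The squares crowd around 0 and 57 of the 59 circles lie to their left.

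The values of small RNA loci have limits of their own. Per the labels' protocols, library products of 350 to 500 bp were cut from a gel, longer than the RNAs above, so the reads at a small RNA locus may come from the mature RNA, from an unspliced precursor or from a longer transcript over it; which of these they were was not tested. Cuffdiff divides by a length corrected for fragment size, so a single read is worth many FPKM on a short feature. For hairpins of 109 bases the smallest value above 0 was 52.9 FPKM in supernatant, shared by Mir146b and Mir683-2, and 19.1 FPKM in lysate, at Mir692-1. By the estimate below, a read on 1 kb was worth more in lysate (0.387 FPKM) than in supernatant (0.268). The 19.1 FPKM may therefore be part of a read shared over several places, which was not tested. Snora23, Snora16a and Scarna6 had supernatant values of 45.5, 25.3 and 10.5 FPKM on transcripts of 184, 137 and 265 bases, so the largest ratios may rest on few reads. A read is worth more on the shorter C/D snoRNAs, and how many reads stood behind each of their values is not known.

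MicroRNA genes went both ways. Of 567 listed, 19 were measured, with a median of -0.10; 5 were at least 2-fold higher in supernatant and 2 lower, and 42 more were listed at 0 in one library. For the genes whose ratio was largest or whose seed is shared, the mature sequences (RefSeq, GRCm38.p6) are given with the seed, bases 2 to 8, in capitals.
miR-29c-3p: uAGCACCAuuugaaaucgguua
let-7a-5p: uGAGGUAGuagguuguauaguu
miR-98-5p: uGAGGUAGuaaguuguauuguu
miR-1902: aGAGGUGCaguaggcaugacuu
miR-692: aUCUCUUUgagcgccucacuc

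Mir29c was at 64.8 FPKM in supernatant, against 290 in lysate and was listed at 0 in both pellets (-2.15). Mirlet7a-1, a gene of the let-7 family that restrains growth genes, was at 344 FPKM in supernatant, 177 in pellet1, 862 in pellet2, against 995 in lysate (-1.53). Mir98 has the same seed as let-7a, GAGGUAG, and was at 54.6 FPKM in supernatant, against 78.9 in lysate (-0.52). On the other side Mir692-1 was at 177 FPKM in supernatant, against 19.1 in lysate (3.14), Mir1902 at 1368 and 287 (2.25), Mir1306 at 777 and 221 (1.81), Mir464 at 3254 and 1193 (1.45) and Mir703 at 159 and 76.4 (1.04). Among the hairpins of 109 bases Mir703 stood at 3 times the smallest value of supernatant and at 4.0 times that of lysate, and Mir692-1, whose own lysate value is that smallest one, at 3.34 times that of supernatant. These multiples are not counts of reads. Of the 19 genes 13 were tested by Cuffdiff and 0 of these had a p under 0.05 in the authors' deposited table. The other 6, Mir29c, Mir1902, Mir1306, Mir464, Mir719 and Mir92-1, have the status of too little data there, so their p says nothing. The reads behind these ratios are not known, and no difference is drawn from them. Of the 3 most abundant measured genes, Mir719 was at 6613 FPKM in supernatant, against 7070 in lysate (-0.10), and Mir3064 at 3090 and 2605 (0.25). The other was Mir464, given above at 1.45.

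Messenger RNAs of the translation machinery were at nearly the same level in supernatant and lysate in the joint table. The 67 measured genes of cytosolic ribosomal proteins had a median of -0.11, with 0 past 2-fold in either direction and 1 at least 1.5-fold lower, Rps21, at 23.7 FPKM in supernatant, against 36.9 in lysate. This list depends on the lysate table: with the separate value, centred, 15 of the 62 genes in both tables were 2-fold lower, the median was -0.31, and Rps21, at 78.1 FPKM in that table, had a log2 ratio of -2.88. At the other end Rplp1 was at 40.5 and 27.8 FPKM (0.53), and the abundant Rps20 at 523 and 553. Reads of ribosomal protein genes and their many processed copies cannot always be told apart. For 51 genes of translation initiation and elongation the median was 0.03 and for 17 cytosolic tRNA synthetases 0.07, with 0 past 1.5-fold in both lists. Eef1a1, the elongation factor that brings aminoacyl-tRNA to the ribosome, was at 444 FPKM in supernatant, against 473 in lysate, and Eif4e2, a cap-binding protein, at 126 and 90.1. Among 30 chaperonin and heat shock genes (median 0.02) Hsp90aa1, a cytosolic chaperone, was at 724 and 628 FPKM. The 35 genes of protein folding and translocation in the endoplasmic reticulum, whose mRNAs are translated on membranes, had a median of 0.04, with Hsp90b1 at 472 FPKM in supernatant, against 404 in lysate and Clgn, a testis chaperone of sperm membrane proteins, at 557 and 481. The 35 proteasome genes had a median of -0.01 and the 20 genes of glycolysis -0.03, with Ldhc, the testis lactate dehydrogenase, at 3338 and 3496 FPKM.

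Nuclear genes of mitochondria had medians near 0. For the 80 measured genes of the respiratory chain the median was -0.07, with 2 at least 2-fold higher and 2 lower in supernatant, of 0.191% and 0.981% in all genes. Uqcr11, a small subunit of complex III, was at 2.80 FPKM in supernatant, against 9.07 in lysate (-1.41), and Ndufa1, of complex I, at 7.22 and 18.8 (-1.27). Ndufs7, also of complex I, was at 11.7 and 3.83 FPKM (1.40). Ndufs5 had the highest ratio of any gene, 3.73, from 12.4 FPKM in supernatant, against 0.00518 in lysate, but the separate table lists the same lysate at 19.2 FPKM and gives a centred log2 ratio of -1.79. Abundant subunits lay close, with Atp5b of the ATP synthase at 236 FPKM in supernatant, against 207 in lysate. Cox8c, a cytochrome oxidase subunit of the testis, was at 181 FPKM in supernatant, 624 in pellet1, 577 in pellet2, against 260.3 in lysate (-0.52). The 55 mitochondrial ribosomal protein genes had a median of -0.06 and 4 were at least 1.5-fold lower, where 2.98% of all genes were, of which Mrpl22 was the lowest, at 12.4 FPKM in supernatant, 48.6 in pellet1, 45.5 in pellet2, against 24.7 in lysate (-0.94, and -1.11 with the separate lysate value). With that value, centred, 6 of the 70 respiratory chain genes in both tables were 2-fold lower and 0 higher, against 1 and 1 of the same 70 with the joint one.

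**Figure D4:**
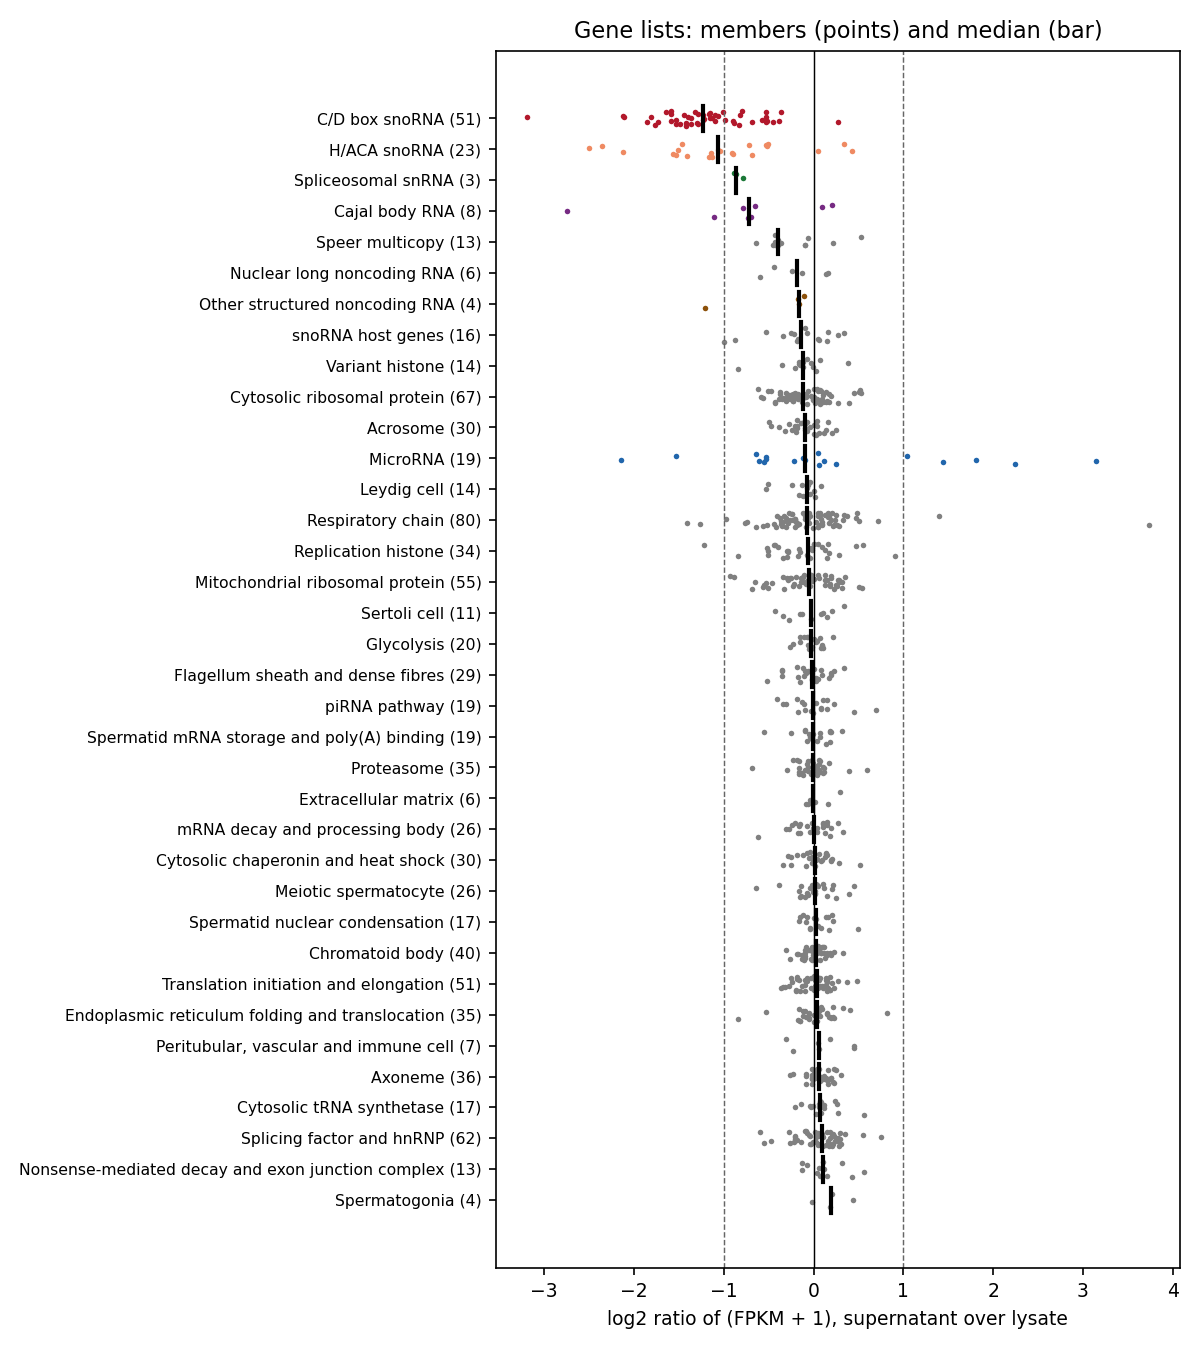
The log2 ratio of (FPKM + 1), supernatant over lysate, of each member (points) and the median (bar) of 36 gene lists with at least 3 measured members, with the number measured in brackets and dashed lines at 2-fold. With the joint lysate value plotted here, C/D and H/ACA snoRNAs, at medians of -1.23 and -1.06, spliceosomal RNAs and Cajal body RNAs stand apart from the other lists, whose medians lie between -0.39 and 0.20.

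Transcripts for the proteins of the chromatoid body were not lower in supernatant. The 40 measured of 53 such genes had a median of 0.03, between Dcp1a, a decapping cofactor (5.71 FPKM in supernatant, against 7.33 in lysate, -0.31), and Cnot7, a deadenylase (14.4 and 11.3, 0.33), and 0 of 40 passed 1.5-fold. Ddx4, for the MVH helicase (chr13:113388541-113442518), was at 298 FPKM in supernatant, 215 in pellet1, 215 in pellet2, against 282 in lysate. Piwil1, for the piRNA-binding protein MIWI, was at 118 FPKM in supernatant, 55.7 in pellet1, 65.4 in pellet2, against 106 in lysate. Mael, a piRNA biogenesis factor, was at 316 FPKM in supernatant, against 341 in lysate. Of 19 piRNA pathway genes, with a median of -0.01, Dnmt3l, a cofactor of DNA methylation at transposons, was 1.5-fold higher, at 6.57 FPKM in supernatant, against 3.68 in lysate, and Pld6, a nuclease of piRNA processing, was lowest at 9.42 and 12.8. The 13 genes of nonsense-mediated decay and the exon junction complex had a median of 0.10, led by Upf3a at 324 and 220 FPKM (0.56), and the 26 of mRNA decay one of -0.00. Among 19 genes of mRNA storage and poly(A) binding, with a median of -0.01, Ybx2, a masking protein of germ cell mRNAs, was at 1107 FPKM in supernatant, 394 in pellet1, 646 in pellet2, against 971 in lysate. The 62 genes of splicing factors and hnRNPs had a median of 0.09, with Hnrnpu at 219 FPKM in supernatant, against 204 in lysate.

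Transcripts of spermatid differentiation had nearly the same levels in both. The 17 genes of nuclear condensation had a median of 0.02. Tnp1, the transition protein that replaces histones, was at 14397 FPKM in supernatant, against 15259 in lysate, and the protamine genes Prm1 and Prm2 were at 13466 and 7172 FPKM in supernatant and 13795 and 6217 in lysate. Prm3 had the highest ratio of the list, at 693 FPKM in supernatant, against 491 in lysate (0.50). The 30 acrosome genes had a median of -0.10, between Izumo3 (65.7 FPKM in supernatant, against 92.8 in lysate, -0.49) and Acrbp, which binds the proacrosin protease (341 and 287, 0.24). Acr, for the protease itself (chr15:89398757-89405015), was at 171 FPKM in supernatant, 202 in pellet1, 227 in pellet2, against 156 in lysate. For 29 genes of the sheath and dense fibres of the flagellum the median was -0.02, with Odf1 at 2866 FPKM in supernatant, against 2906 in lysate, and for 36 axoneme genes it was 0.06, with the radial spoke gene Rsph1 at 855 and 738. The 26 meiotic genes had a median of 0.02, with Sycp3 of the synaptonemal complex at 82.7 and 60.2 FPKM (0.45). In these 5 lists 0 genes passed 2-fold, and 1, Msh4 at 4.12 FPKM in supernatant and 6.97 in lysate, passed 1.5-fold.

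Markers of the other cells of the testis had like levels in supernatant and lysate. In bulk samples a smaller number of cells of a type and less RNA per cell cannot be told apart. The 14 measured Leydig cell genes had a median of -0.07, with the steroid enzyme gene Cyp17a1 at 136 FPKM in supernatant, against 140 in lysate, and Insl3, a peptide hormone gene, lowest at 53.8 and 78.1. The 11 measured of 28 Sertoli cell genes had a median of -0.03, with Clu at 34.6 FPKM in supernatant, against 30.0 in lysate, while Sox9 was at 0.855 and 0.772 and Fshr at 0.195 and 0.0176, so these defining markers were at or near 0. Spermatogonial genes (4 measured of 23) had a median of 0.20, which rests on Dazl, Dmrtb1, Id4 and Uchl1. The spermatogonial markers Kit, Zbtb16 and Stra8 fell under the 5 FPKM threshold, with log2 ratios of -0.44, -0.11 and 0.03. At a mean of at least 1 FPKM the median of the spermatogonial list was 0.030 over 15 genes. Genes of peritubular, vascular and immune cells (7 measured of 30) had a median of 0.06. Hbb-b1, of red blood cells, was at 16.4 and 14.3 FPKM. Among 6 extracellular matrix genes the median was -0.01.

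Long nuclear RNAs were not lower in supernatant in the way snoRNAs were. The 6 measured long noncoding RNAs of the nucleus had a median of -0.18 and 0 passed 2-fold. Malat1, of nuclear speckles, was at 698 FPKM in supernatant, 394 in pellet1, 679 in pellet2, against 626 in lysate (0.16). Neat1, the scaffold of paraspeckles, was at 70.2 FPKM in supernatant, 147 in pellet1, 242 in pellet2, against 76.7 in lysate (-0.12). Peg13, an imprinted noncoding RNA, was the lowest, at 4.09 FPKM in supernatant, 26.8 in pellet1, 18.4 in pellet2, against 6.68 in lysate (-0.59). The 34 measured replication histone genes, most of whose mRNAs lack a poly(A) tail, had a median of -0.07. They ran from Hist2h2ab (12.6 FPKM in supernatant, against 30.7 in lysate, -1.22) to Hist1h4f (20.2 and 10.3, 0.91). The 14 variant histone genes had a median of -0.12. These histone lists share members, among them Hist1h1t, Hist1h2aa and Hist1h2ba, so their medians are not separate. The Speer genes, a multicopy family of the testis, had the lowest median among the lists of longer transcripts, -0.39 over 13 members, with 1 at least 1.5-fold lower and 0 past 2-fold; with the separate lysate value the median was -0.88 and 4 were 2-fold lower. Speer4e was at 79.98 FPKM in supernatant, 854 in pellet1, 718 in pellet2, against 105 in lysate, and Speer4d was at 79.7, 852, 734 and 109 in the same libraries; reads of these near-identical copies cannot be told apart. AF357355, a snoRNA by its RefSeq biotype that the lists above do not hold, was at 2647 FPKM in supernatant, 103366 in pellet1, 61700.2 in pellet2, against 4492 in lysate (-0.76).

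Outside the small RNA lists the few genes past 2-fold were mostly of low level. All 10 higher and 21 of the 24 lower genes had a mean under 20 FPKM. The lowest was Gm9790, a pseudogene, at 3.86 FPKM in supernatant, 38.8 in pellet1, 36.0 in pellet2, against 27.7 in lysate (-2.56), followed by Gm15056 at 1.82 and 10.5 (-2.03) and Gm13138 at 2.62 and 10.5 (-1.67). For Gm9790 the Cuffdiff status was too little data. Romo1, a mitochondrial protein gene, was at 6.96 FPKM in supernatant, against 18.4 in lysate (-1.28), Cbr4, a carbonyl reductase of mitochondria, had a log2 ratio of -1.46, and Dynlt1e, a dynein light chain, at 7.29 and 21.4 (-1.44). After Ndufs5 the highest were Hmga1, a chromatin protein gene, at 8.77 FPKM in supernatant, against 1.35 in lysate (2.05), Nhej1, of DNA end joining, at 9.92 and 2.89 (1.49), and Ndufs7. Mtrnr2l, the fourth most abundant gene outside the lists, was at 4025 FPKM in supernatant, 2019.5 in pellet1, 2307 in pellet2, against 5789 in lysate (-0.52). The separate table lists its lysate at 112 FPKM, which gives a centred log2 ratio of 3.96, so the direction of Mtrnr2l depends on the table. The spread of the log2 ratio depended on level: its SD over genes was 0.33 for 2127 genes at 5 to 10 FPKM, 0.17 for 713 genes at 100 to 500 FPKM and 0.21 for the 74 genes above 500 FPKM.

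Shorter transcripts lay slightly lower in supernatant. For genes outside the small RNA lists the median log2 ratio was -0.11 for 84 genes with a transcript of up to 500 bases, -0.08 for 461 of 500 to 1000, -0.02 for 1317 of 1000 to 2000, 0.01 for 2707 of 2000 to 4000 and 0.01 for 2278 above 4000. The share at least 1.5-fold lower was 14.3%, 6.51%, 3.57%, 1.22% and 0.439% in the same order of length, and the share at least 1.5-fold higher was 5.95%, 3.69%, 1.59%, 0.85% and 0.0878%. At a mean of at least 20 FPKM the medians ran from -0.13 in the shortest class to 0.02 in the longest. The medians of all these classes were far from that of the snoRNAs. The lengths of GENCODE M21 cover only 88.5% of these genes. The shortest class runs up to 500 bases, against medians of 80 and 133 for C/D and H/ACA snoRNAs, so whether length bears on the snoRNA difference was not tested. By chromosome the median was 0.00 for 7550 autosomal genes and -0.04 for 163 genes on the X.

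**Figure D5:**
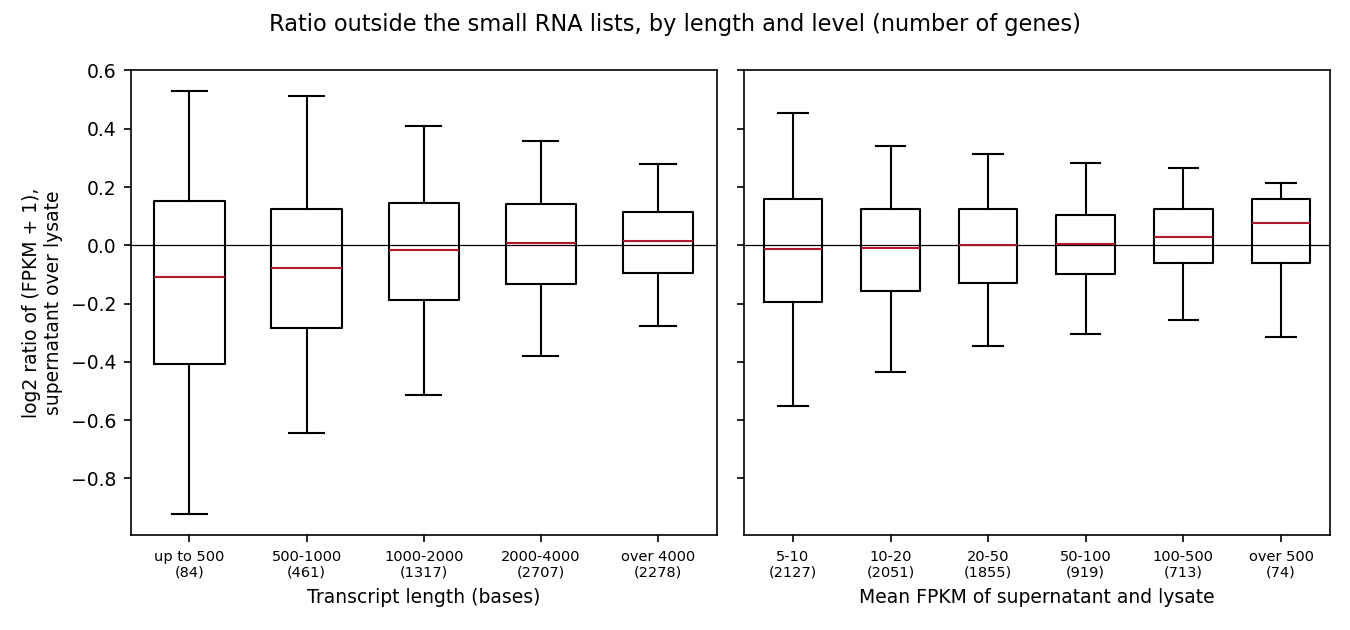
Boxes give the quartiles and median (red line), and whiskers the 5th and 95th percentile, of the log2 ratio of (FPKM + 1), supernatant over lysate, for genes outside the small RNA lists by transcript length in bases (left) and by mean FPKM (right), with the number of genes in brackets. The medians go up from -0.11 in the shortest class to 0.01 in the 2 longest, the boxes narrow with length, and by level they narrow up to 100 to 500 FPKM and are wider again above 500.

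No file used here gives the depth, but the steps between low values of single-exon receptor genes gave an estimate of what a read was worth. On a transcript of 1 kb a read was worth 0.268 FPKM in supernatant, 0.55 in pellet1, 0.538 in pellet2, against 0.387 in lysate. If each library was scaled by its own reads alone, the supernatant was 1.45 times as deep as the lysate. The scaling is not given, so depth and scaling cannot be told apart. Between 38.9% and 50.9% of the values used were whole multiples of the step within 0.5%, so these are rough. A transcript of 1 kb at 5 FPKM then stood on about 18.7 reads in supernatant, against 12.9 in lysate. In supernatant 18437 genes were above 0 and in lysate 17980. The 10 highest features held 66.4% of the summed FPKM in supernatant and 69.1% in lysate, and the sum over genes outside the small RNA lists was 433536 in supernatant, against 434647 in lysate.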

How the data were processed

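RNA from 4 libraries of a chromatoid body purification (supernatant, pellet1, pellet2 and lysate) was sequenced by the authors after priming with not-so-random hexamers from 1 µg of total RNA. Reads were placed on mm9 with TopHat and quantified with Cuffdiff, per the submitters' processing notes, whereas no source used here gives versions, strand setting or scaling. Per the file headers, the deposited joint table holds FPKM values, p-values and q-values from Cuffdiff for pairs of conditions, with 27024 features of which 21905 carry gene symbols, 4922 are unnamed and 197 are piRNA clusters. The lines of the supernatant and lysate pair were used as deposited. Pellet values differ between pairs of conditions for 6 features in pellet1 and 13 in pellet2, and the highest was taken. MVH IP values, where 3 libraries share 1 column, were not analysed here. Coordinates are mm9, counted from 1, and give the whole locus that Cuffdiff merged, not a small RNA within it.

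Genes listed at 0 in one library (51 with a mean of at least 5 FPKM) were counted apart, since a 0 can be a failed estimate. The log2 ratio used a pseudocount of 1 FPKM, which understates the change of low genes. A gene was called at 2-fold; there is no test, SD or n of these ratios, and q-values are the authors'. The calculation was checked on simulated data, with changes larger than 2-fold in genes of at least 20 FPKM and a fixed transcript length. That check says nothing about how well calls hold for low genes or small RNA loci. There were 37 gene lists, of which the mitochondrially encoded one had no measured member; the members and lists were chosen with earlier results of these data known, and after values were seen Gm12238 and Rnu73b were removed from the snoRNA host list and Mir17hg was kept out of the microRNA list. Named genes were the 12 highest and 12 lowest outside the small RNA lists, the 8 highest and lowest within them, in each list up to 3 most abundant with the highest and lowest ratio, 9 marks of cell types and targets, authors' calls, and the 10 most abundant genes; others are named as partners at a locus. Names, biotypes, lengths and sequences were joined by symbol from RefSeq GRCm38.p6 (99.3% of genes) and GENCODE M21; of 243 small RNA loci 225 had a span equal to the transcript length. Python 3.11.15, pandas 2.3.3, numpy 2.4.6 and matplotlib 3.10.9 were used. Alternatives were other pseudocounts, filters and scalings, genes at 0 kept, small RNA loci left out and, added after seeing the data, the separate lysate table and Cuffdiff status.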

Additional observations from a re-analysis of the deposited data

Results flagged for a closer look

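A feature named as a piRNA cluster lies outside the gene rule but stood out in the same pair of libraries. Cluster 177 of the table (mm9 chr17:39983505-39984882) was at 54296 FPKM in supernatant, 66701 in pellet1, 58282 in pellet2, against 75327 in lysate, a log2 ratio of -0.47, and the authors' deposited table lists its q as 0. What else the interval of cluster 177 holds was not looked up, so its reads may not come from a piRNA precursor. The 179 measured piRNA clusters had a median of -0.01, with 0 at least 2-fold higher and 2 lower in supernatant.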

How the results depend on the processing

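No paired analysis was possible because each condition had 1 library, which also leaves no replicate to leave out. The median over all genes moved by at most 0.1 on the log2 scale under every alternative run for it. The 15 genes at least 2-fold higher became 7 with a pseudocount of 5, 62 at a mean of at least 1 FPKM, 5 at a mean of at least 20 and 40 with genes listed at 0 kept; the 77 lower became 146 at a mean of at least 1, 24 without small RNA loci and 123 with the separate lysate table. For snoRNAs the 48 of 74 lower became 27 of 68 with the separate lysate table, and the 0 higher became 1 (Snord42a) with genes at 0 kept. Both counts kept within 1.5 times of the reported ones with centring on the median of all genes, with equal sums outside the small RNA lists, with a pseudocount of 0.1 and with features of Cuffdiff status OK.

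Medians of lists moved by over 0.1 in these cases. At a mean of at least 1 FPKM, snoRNA host genes had -0.033 and spermatogonial genes 0.030. At a mean of at least 20, mitochondrial ribosomal proteins had 0.061, replication histones -0.30 and peritubular, vascular and immune genes -0.23. With genes listed at 0 kept, microRNAs had 0.12. With the separate lysate table, centred, C/D snoRNAs had -0.90, H/ACA snoRNAs -0.84, Cajal body RNAs -0.41, spliceosomal RNAs -0.62, microRNAs 0.39, other structured RNAs -0.96, nuclear long noncoding RNAs 0.16, cytosolic ribosomal proteins -0.31, proteasome -0.12, variant histones -0.0094, chaperonins 0.12, nonsense-mediated decay -0.087, nuclear condensation 0.13, flagellum 0.089, peritubular, vascular and immune genes 0.50 and Speer genes -0.88. Of the 150 named genes in both tables the 2-fold call differed there for 12. Ndufs5 reversed to -1.79 and Tmsb15b1 to -0.72; Snord58b, Snord87 and Vaultrc5 lost the call; Mtrnr2l became 3.96, Rnu1b2 -8.33, Rps21 -2.88, Hist1h2aa -1.88, Snrpc -1.48, Rn4.5s -1.14 and Mrpl22 -1.11. The cause was not tested; a table with a floor holds fewer low genes. Besides the 2 reversed genes, 102 of the 150 moved by over 0.1 there; with a pseudocount of 5, 51 of 198 did. The reads behind small RNA loci are not known, so what depth limits there is not given as a number.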
